A study of Mus musculus with 9 samples.

Results

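The genes described here are the heat shock proteins and DnaJ cochaperones of the mouse renal cortex, taken as every mRNA gene whose symbol starts with Hspa, Hspb, Hspd, Hspe, Hsph, Hsp90 or Dnaj. The rule found 74 genes among 21950, and 69 of them (28 HSP-named and 41 Dnaj-named) reached a mean of at least 0.1 FPKM over the 9 libraries, out of 14537 genes that did. Of the 5 genes below that level, Dnajc5b, Dnajc5g and Hspb3 were listed at 0 in every library, and Dnajb8 and Dnajb13 had values above 0. Hspa1l, at a mean of 0.103 FPKM, was the member just inside the limit. FPKM is the number of sequenced fragments scaled to transcript length and to the mapped fragments of the library, so values of different genes can be set side by side per length.

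A library was made from the renal cortex of each of 9 mice aged 15 weeks, 3 per group. Control mice were db/m littermates, heterozygous for the db mutation of the leptin receptor (Lepr). dbdb mice were homozygous for db, were labelled type 2 diabetic and received a vehicle by gavage, and dbR mice were homozygous for db and received rosiglitazone, a PPARγ agonist, at 20 mg/kg/day by gavage for 8 weeks, starting at 7 weeks of age. All mice were males of the C57BL/KsJ strain according to the study's methods, the mutation is present in every cell of the animal rather than in the kidney alone, and no db/m mice were given rosiglitazone. The comparison of dbdb with control therefore asks how the chaperone genes differ in the diabetic cortex, and that of dbR with dbdb how they differ after treatment.

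HSP70 proteins bind exposed hydrophobic stretches of unfolded clients and let them go in a cycle driven by ATP. DnaJ proteins (the HSP40 family) bring clients and start the ATP hydrolysis, nucleotide exchange factors such as the HSP110 proteins and the BAG proteins reset the cycle, and HSP90 with its cochaperones takes over clients that are close to their final fold, among them steroid receptors and kinases. Each compartment has its own set, with Hspa5 (BiP) and Hsp90b1 (GRP94) in the endoplasmic reticulum and Hspa9 (mortalin) and the Hspd1/Hspe1 chaperonin in mitochondria. The cytosolic stress-inducible genes are switched on by heat shock factor 1, which binds heat shock elements, arrays of the unit GAA in alternating orientation, while the unfolded protein response controls the genes of the endoplasmic reticulum.

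The promoter sequences below are shown because they carry the letters of that element in members whose levels are described afterwards. Promoter windows from RefSeq (GRCm38.p6), from 250 bases before to 50 bases after a transcription start, were matched by symbol for 56 of the 69 members. The 13 others, which were not searched, were Hspa8, Hspa9, Hspa13, Hsp90aa1, Hsp90ab1, Hspb2, Dnajc2, Dnajc5, Dnajc11, Dnajc12, Dnajc18, Dnajc22 and Dnajc30. A heat shock element of 3 units was searched as GAANNTTCNNGAA or TTCNNGAANNTTC, which together cover both strands, and a pair of units as GAANNTTC or TTCNNGAA, which also lies inside every element of 3 units. The element of 3 units was found for 4 of 56 members (7.14%), namely Dnajb6, Hspd1, Hspe1 and Hsph1, and for 0.662% of the 27025 genes with a window. The pair was found for 14 of 56 members (25.0%) and for 17.0% of all genes. These matches describe the letters in the windows and nothing about binding.

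Hspd1 and Hspe1 are neighbours that point away from each other on chromosome 1, and the same bases between their RefSeq starts hold 2 overlapping elements, 127 to 144 bases before the start of Hspd1 and 72 to 89 bases before that of Hspe1. In Hsph1 the element lies behind the start, at bases 16 to 28 counted from 1 at the downstream of 2 starts, and in Dnajb6 it lies 34 to 46 bases before the upstream of 2 starts. Dnaja1 has a pair of units 117 to 124 bases before its start and Hspb8 one at bases 3 to 10 behind it. Hspa1a and Hspa1b have a pair 97 to 104 bases before the start, and the 150 bases in front of these 2 genes differ at 1 position. The sequences read 5′ to 3′ on the strand of the gene, with all overlapping elements of 3 units in capitals for the top 4 and the pair of units in capitals for the others. Their positions are chr1:55088053-55088082 for Hspd1 (minus strand) and Hspe1 (plus strand), chr5:149636282-149636306 for Hsph1 (minus), chr5:29735846-29735870 for Dnajb6 (plus), chr4:40722334-40722361 for Dnaja1 (plus), chr5:116422845-116422872 for Hspb8 (minus), chr17:34972157-34972306 for Hspa1a (minus) and chr17:34959239-34959388 for Hspa1b (minus).
Hspd1: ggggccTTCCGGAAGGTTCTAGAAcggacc
Hspe1: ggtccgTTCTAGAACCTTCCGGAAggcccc
Hsph1: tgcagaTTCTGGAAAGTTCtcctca
Dnajb6: ctccgaGAATCTTCCGGAAcgctag
Dnaja1: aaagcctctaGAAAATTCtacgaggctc
Hspb8: gaagccaggaGAAGTTTCtaggctcgcg
Hspa1a: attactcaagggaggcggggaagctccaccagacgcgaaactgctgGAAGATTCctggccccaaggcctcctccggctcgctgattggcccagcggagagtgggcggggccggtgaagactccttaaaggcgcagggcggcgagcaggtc
Hspa1b: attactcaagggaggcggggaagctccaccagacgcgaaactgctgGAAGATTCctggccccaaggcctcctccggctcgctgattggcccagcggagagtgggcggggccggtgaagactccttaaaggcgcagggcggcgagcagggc

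As read from the steps between their lowest values, the libraries had between 0.915 and 1.14 times the depth of control replicate 1. That search covered only ratios near equal depth, so it cannot show a larger difference. Mitochondrial transcripts held 26.9% to 32.8% of the mRNA FPKM. Lepr lay at 1.05 to 1.23 FPKM in the control group, 0.304 to 0.652 in dbdb and 0.335 to 0.512 in dbR. Control replicate 3 stood apart, with 4 genes at less than 5% of the lowest value of any other library, counted among genes of at least 10 FPKM in every other library. There was 1 such gene in dbdb replicate 1 and 0 in each of the other 7 libraries. Hsp90aa1 is among the 4, so calls that include the control group are also given without control replicate 3 where it changes them.

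The 69 members together held between 0.841% and 0.946% of the FPKM of nuclear genes in the control libraries, 0.744% to 0.762% in dbdb and 0.753% to 0.766% in dbR. The control range did not overlap with either of the others. The 10 members with the highest control means held 72.7% of the members' FPKM in control, 67.9% in dbdb and 70.1% in dbR, and Hspa8, the constitutive cytosolic HSP70 (HSC70), alone held 22.1%, 19.1% and 20.4%. After Hspa8, at 955 ± 43.6 FPKM in control (SD, n = 3), came Hsp90ab1 at 362 ± 41.1, Hspd1 at 357 ± 27.7, Hspa9 at 262 ± 5.8 and Hspe1 at 258 ± 19.6. Hsp90ab1 and Hspd1 overlapped in their control libraries, as did Hspa9 and Hspe1. The stress-inducible Hspa1a and Hspa1b were far lower, at 2.59 ± 1.17 and 5.13 ± 2.65 FPKM. Within the control group control replicate 1 was the lowest library for 31 of 69 members (44.9%), compared with 28.2% of all genes.

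Compared to the control group, 20 of 69 members were called in dbdb (29.0%, adjusted p under 0.05 in limma), near the 26.4% of all genes tested that were called. Of these, 15 were lower in dbdb, where 13.4% of all genes were called lower, and 5 were higher, where 13.1% of all genes were called higher. The median log2 fold change was -0.043 over the members and -0.003 over all genes. The groups did not overlap for 23 members that were lower in dbdb (33.3%, all genes 21.2%) and 8 that were higher (11.6%, all genes 21.2%). Without control replicate 3, 18 members were called, 16 of them lower, against 19.0% of all genes called and 9.69% called lower. Dnajc27, Dnajc9 and Hspb8 were then no longer called and Hsp90aa1 was called. The groups then did not overlap for 25 lower members (36.2%, all genes 24.9%) and 11 higher ones (15.9%, all genes 24.6%).

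**Figure D1:**
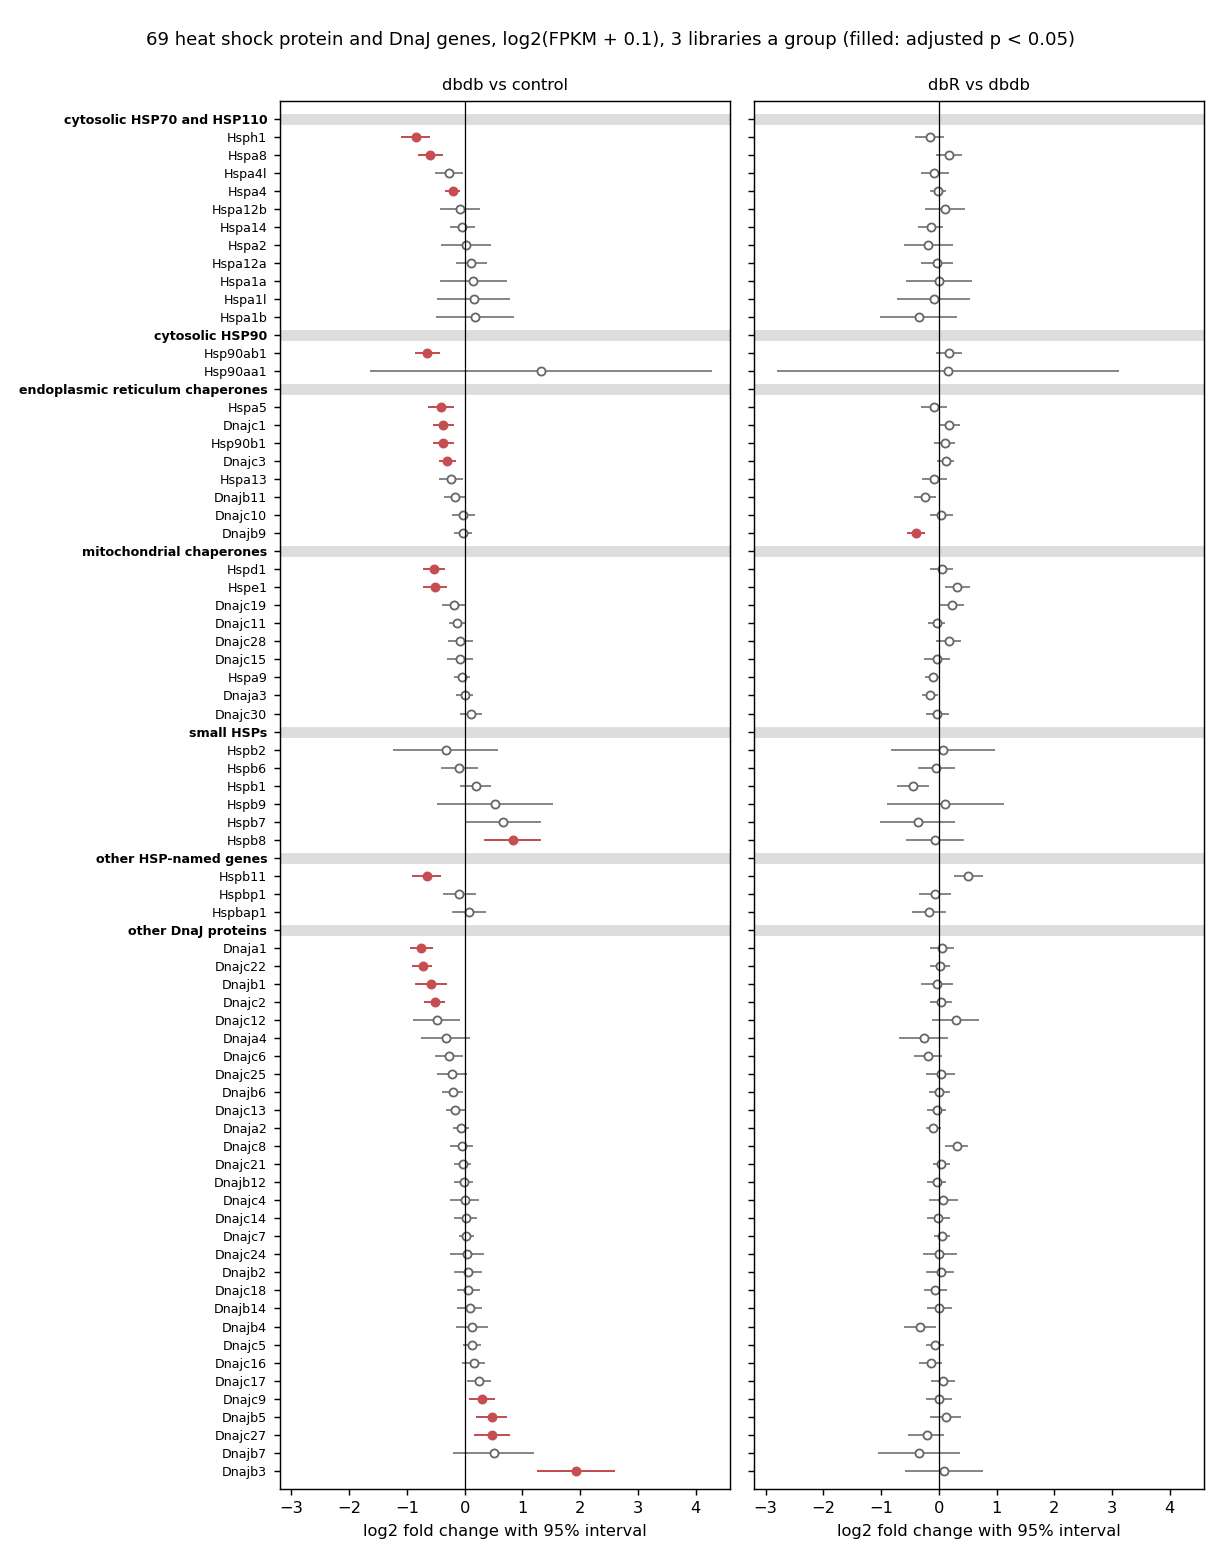
Log2 fold changes (log2(FPKM + 0.1) scale) of the 69 members with 95% intervals, ordered by compartment, for dbdb vs control and dbR vs dbdb (3 libraries per group). Filled red points passed an adjusted p of 0.05, which were 15 lower and 5 higher members in dbdb vs control and Dnajb9 alone in dbR vs dbdb, and the wide bar is Hsp90aa1. With mitochondrial genes left out of the scaling, the called members of dbdb vs control were 10 higher and 10 lower. Over all 14524 genes of that fit, 3489 were called higher and 968 lower.

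All members called lower had a mean of at least 10 FPKM. Among the 11 members with a mean of 100 FPKM or more, 7 were lower in dbdb and 0 higher, compared with 23.1% lower and 11.8% higher among the 811 genes of that level. Between 10 and 100 FPKM 8 of 32 members were lower (25.0%, all genes 19.8%) and 0 higher, whereas between 1 and 10 FPKM 5 of 21 were higher (23.8%, all genes 16.1%) and 0 lower. Of the 5 members under 1 FPKM 0 were called by limma, and Hspb7 alone had an unadjusted p under 0.05. Without control replicate 3 the 5 higher members between 1 and 10 FPKM became 2 of 21, when 11.1% of all genes at that level were higher. Scaled without mitochondrial genes, 5 of 11 members at 100 FPKM or more were lower (all genes 16.5%) and 0 higher (29.6%). Between 10 and 100 FPKM 5 of 32 were then lower (8.32%) and 3 higher (26.2%), and between 1 and 10 FPKM 0 of 21 were lower (4.28%) and 7 higher (27.6%).

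Of the 11 cytosolic HSP70 and HSP110 members 3 were lower in dbdb (27.3%, all genes 13.4%) and 0 higher. Hspa8 lay at 905, 983 and 976 FPKM in the control libraries, at 696, 600 and 602 in dbdb and at 650, 775 and 722 in dbR. All 3 control libraries were above all 6 db/db libraries, and the log2 fold change of dbdb vs. control was -0.60 (SE 0.09, adjusted p = 0.00141), a level 33.8% lower. Hsph1, the HSP110 protein that resets the HSP70 cycle, had 26.4, 34.1 and 34.1 FPKM in control, 16.6, 18.9 and 16.6 in dbdb and 15.7, 14.2 and 16.7 in dbR, with a log2 fold change of -0.85 (SE 0.11, adjusted p = 0.000458) in dbdb vs. control. Among the DnaJ partners of HSP70, Dnaja1 was at 180, 216 and 217 FPKM in control and 125, 121 and 119 in dbdb (log2 fold change -0.75, SE 0.08, adjusted p = 0.00022). It was at 116, 134 and 130 in dbR, so again no db/db library reached the lowest control library. Dnajb1, the inducible HSP40, had 18.6, 23.5 and 25.5 FPKM in control, 15.2, 14.6 and 14.7 in dbdb and 12.7, 15.2 and 15.7 in dbR (dbdb vs. control -0.59, adjusted p = 0.00535). Hspa4, another HSP110 protein, changed by -0.20 (adjusted p = 0.0169), a call that was lost without control replicate 2 or dbdb replicate 1 (adjusted p up to 0.0596), with quantile normalization and with mitochondrial genes left out of the scaling.

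The stress-inducible Hspa1a and Hspa1b were not called. They lie on chromosome 17 (34969190 to 34972156 and 34956436 to 34959238, minus strand), and their longest open reading frames differed at 8 of 1926 aligned bases (99.6% identical), so their split by the authors' counting is uncertain. Hspa1a was at 1.55, 2.38 and 3.86 FPKM in control, 2.53, 2.66 and 2.96 in dbdb and 2.63, 2.67 and 2.84 in dbR. Hspa1b was at 2.66, 4.8 and 7.93 in control, 4.99, 5.63 and 5.25 in dbdb and 4.12, 3.96 and 4.25 in dbR. In both genes the control libraries spanned the range of all the others, and the log2 fold changes of dbdb vs. control were 0.15 (95% interval -0.41 to 0.71) and 0.17 (-0.48 to 0.83), neither past the threshold. Without control replicate 3, the highest control library for both, they were 0.48 (adjusted p = 0.0822) and 0.55 (adjusted p = 0.0882), and without control replicate 1, the lowest, -0.16 (adjusted p = 0.579) and -0.22 (adjusted p = 0.412). The other members of the group, Hspa1l, Hspa2, Hspa4l, Hspa12a, Hspa12b and Hspa14, had log2 fold changes between -0.28 and 0.16 and did not pass the test.

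**Figure D2:**
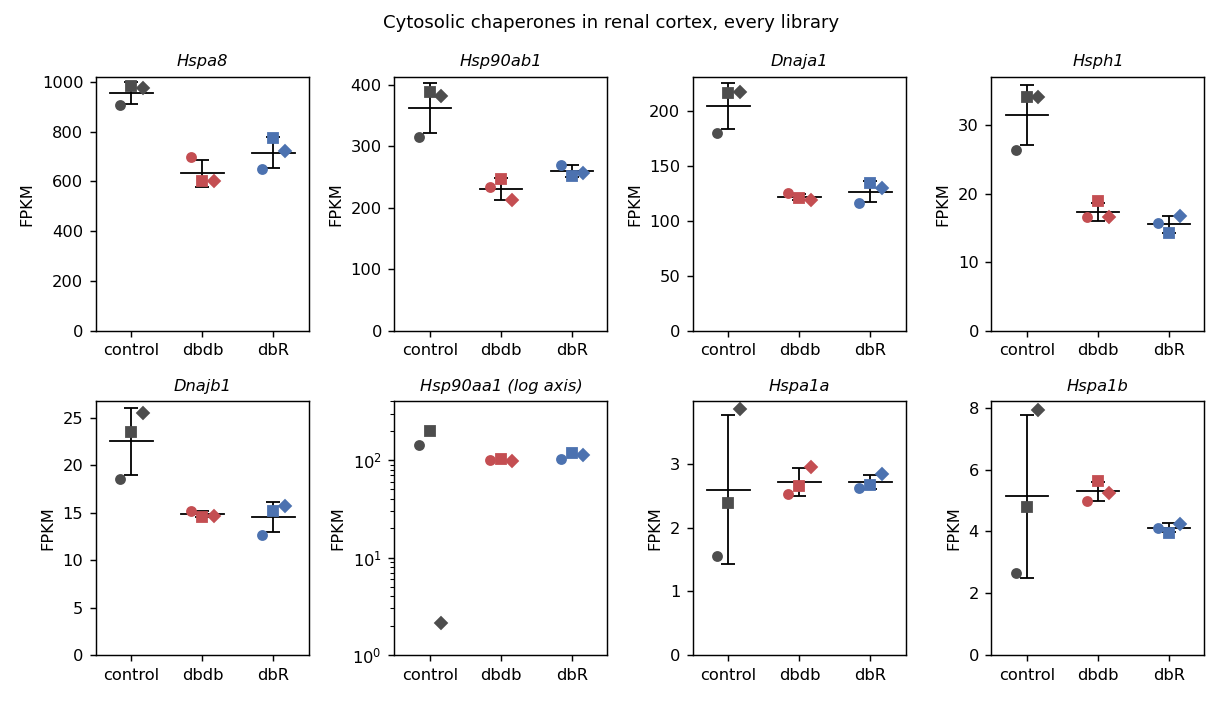
FPKM of 8 cytosolic chaperone genes in every library (circle, square and diamond are replicates 1, 2 and 3), with the mean as a line and the SD as a bar except for Hsp90aa1, which is on a log axis. Control libraries lie above all db/db libraries for Hspa8, Hsp90ab1, Dnaja1, Hsph1 and Dnajb1, span them for Hspa1a and Hspa1b, and Hsp90aa1 is at 2.14 FPKM in control replicate 3.

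Hsp90ab1, the constitutive cytosolic HSP90, fell from 315, 389 and 382 FPKM in control to 233, 246 and 212 in dbdb (log2 fold change -0.65, SE 0.09, adjusted p = 0.00082), and was at 270, 251 and 257 in dbR. The inducible Hsp90aa1 was at 143 and 199 FPKM in control replicates 1 and 2 but at 2.14 in control replicate 3, compared with 99.2, 103 and 98 in dbdb and 103, 118 and 114 in dbR. Both of its main transcripts were low in that library, at 0.0697 and 2.07 FPKM against 42.5 to 147 in the other controls. On all libraries the log2 fold change of dbdb vs. control was therefore 1.32 with an SE of 1.32 (adjusted p = 0.498), while without control replicate 3 it was -0.75 (adjusted p = 0.0037). The direction and the call for this gene rest on that 1 library, and what set its value was not tested.

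Of the 8 members listed here for the endoplasmic reticulum, 4 were lower in dbdb and 0 higher, where 13.4% and 13.1% of all genes were. The list does not hold every DnaJ protein of this compartment. Dnajb12, Dnajb14, Dnajc14, Dnajc16, Dnajc18 and Dnajc25 were counted with the remaining DnaJ members and were not called on the deposited values. Hspa5 had 179, 169 and 172 FPKM in control, 113, 132 and 150 in dbdb and 115, 129 and 126 in dbR (dbdb vs. control -0.41, SE 0.10, adjusted p = 0.0114). Hsp90b1 had 199, 219 and 215 in control, 148, 164 and 178 in dbdb and 165, 178 and 179 in dbR (dbdb vs. control -0.37, SE 0.08, adjusted p = 0.0062). Neither group of db/db mice overlapped with control in these genes. Dnajc3 (p58IPK), which restrains the translation block of the unfolded protein response and assists Hspa5, changed by -0.30 (adjusted p = 0.00547) and Dnajc1, a membrane DnaJ protein of this compartment, by -0.37 (adjusted p = 0.00468). Dnajb9, Dnajb11, Dnajc10 and Hspa13 did not pass the test, at -0.03, -0.17, -0.03 and -0.23. These 4 calls depended on the scaling of the libraries. With mitochondrial genes left out and the rest scaled to the same sum, the median of all genes moved to 0.149, and none of the 4 was called (Hspa5 -0.25 with an adjusted p = 0.0862, Hsp90b1 -0.22 with an adjusted p = 0.0756). Under that scaling 20 members were again called, but 10 were higher and 10 lower, and 78.3% of the calls over all genes were higher compared with 49.5% on the deposited values. Hspa5 and Hsp90b1 were not called with quantile normalization either. Hspa8, Hsph1, Hsp90ab1, Dnaja1, Dnajb1, Hspd1 and Hspe1 were lower and called under each of the 3 other scalings tried.

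In mitochondria the chaperonin changed and the HSP70 did not pass the test. Hspd1 (HSP60) was at 329, 358 and 384 FPKM in control, 266, 249 and 227 in dbdb and 245, 259 and 264 in dbR, and its lid Hspe1 (HSP10) at 236, 266 and 273, then 204, 174 and 165, then 217, 235 and 226. All db/db libraries lay below all control libraries in both genes, which share the elements shown above and, in the GENCODE annotation, 112 exonic bases on opposite strands. Their log2 fold changes in dbdb vs. control were -0.53 (SE 0.08, adjusted p = 0.0012) and -0.51 (SE 0.09, adjusted p = 0.00252). Hspa9 was at 256, 266 and 265 FPKM in control and 265, 251 and 248 in dbdb, a log2 fold change of -0.04 with a 95% interval of -0.16 to 0.08. The DnaJ members of mitochondria (Dnaja3, Dnajc11, Dnajc15, Dnajc19, Dnajc28 and Dnajc30) had log2 fold changes between -0.19 and 0.11, and 0 of these 6 were called by limma, with Dnajc11 alone at an unadjusted p under 0.05, while 26.4% of all genes were called. Dnajc30 was called higher with mitochondrial genes left out of the scaling.

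**Figure D3:**
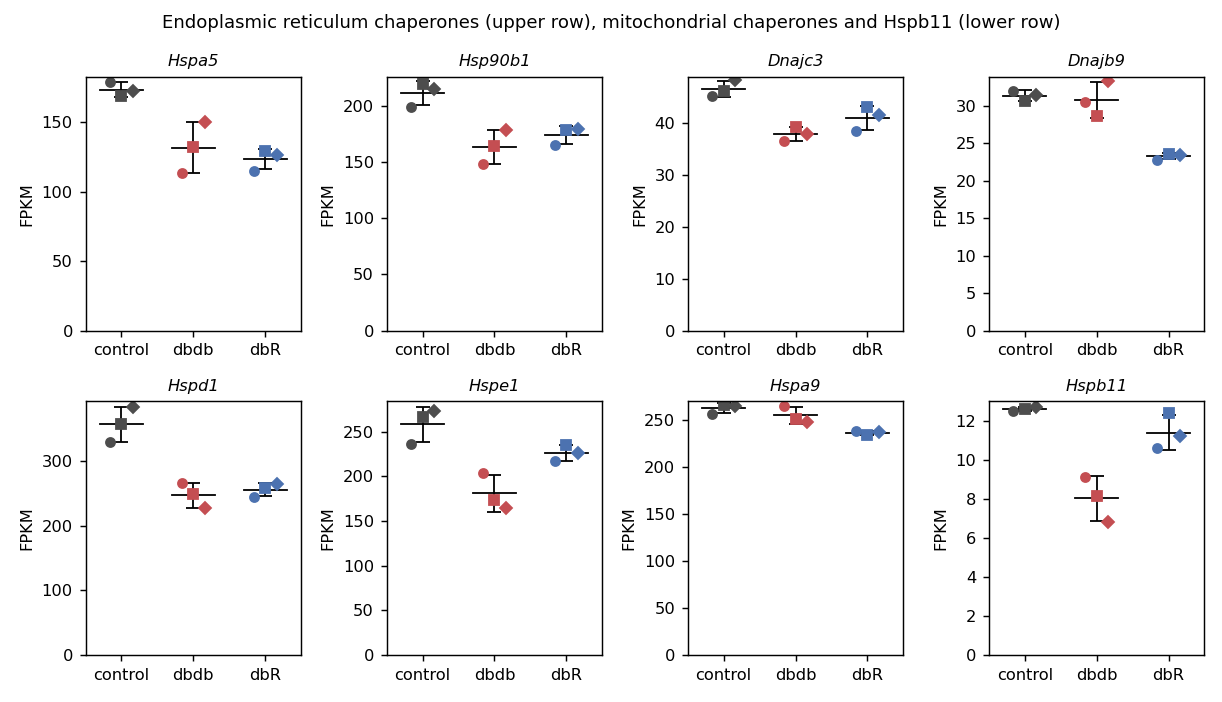
FPKM of 4 genes of the endoplasmic reticulum (upper row) and of Hspd1, Hspe1, Hspa9 and Hspb11 (lower row) in every library (circle, square and diamond are replicates 1, 2 and 3), with the mean as a line and the SD as a bar. Dnajb9 is lower in dbR than in both other groups, Hspe1 and Hspb11 are higher in dbR than in dbdb without overlap, and Hspa5, Hsp90b1 and Dnajc3 are below control in dbdb on the deposited scale, a call lost for all 3 with mitochondrial genes left out of the scaling and for Hspa5 and Hsp90b1 with quantile normalization.

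Small heat shock proteins hold unfolding clients without using ATP. Hspb8, which works with Bag3 in the removal of misfolded proteins by autophagy, was at 1.83, 1.04 and 1.14 FPKM in control, 2.6, 1.94 and 2.68 in dbdb and 2.51, 2.49 and 1.85 in dbR. It was upregulated in dbdb by 0.83 (SE 0.22, adjusted p = 0.0185), and the call was lost without any of 4 libraries in turn (control replicates 2 and 3, dbdb replicates 1 and 3; adjusted p up to 0.0641). Hspb1 (HSP25), a small HSP with 2 unit pairs before its start, was at 3.65, 4.16 and 4.73 FPKM in control, 4.49, 4.59 and 5.18 in dbdb and 3.54, 3.16 and 3.69 in dbR and was not called. Hspb2, Hspb6, Hspb7 and Hspb9 had log2 fold changes between -0.33 and 0.67 and did not pass the test, and Hspb2 shares 30.2% of its exonic bases with Cryab on the opposite strand.

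Of the 30 remaining DnaJ members, 4 were lower in dbdb, among them Dnaja1 and Dnajb1 as above, and 4 higher, together 26.7% as against 26.4% of all genes. The 4 higher ones became 2 without control replicate 3, when 1352 of 14537 genes were called higher. With mitochondrial genes left out of the scaling they became 8, when 3489 of 14524 genes were. Dnajb6, whose promoter element is shown above, was at 67, 69.9 and 74.5 FPKM in control, 65.3, 61.8 and 56.4 in dbdb and 57.8, 60.9 and 65.6 in dbR, and was not called in dbdb vs. control (-0.21, adjusted p = 0.0635). Dnajc22, a membrane-spanning DnaJ protein, had the smallest adjusted p of the members, with 64.5, 61.3 and 71.8 FPKM in control, 39.1, 39.9 and 39.7 in dbdb and 37.7, 40 and 42.6 in dbR (dbdb vs. control -0.73, SE 0.07, adjusted p = 9.83e-05). Dnajc2, which acts on nascent chains at the ribosome, was at 21.2, 21.4 and 23.3 FPKM in control and 16.7, 14.6 and 14.6 in dbdb (log2 fold change -0.52, adjusted p = 0.0011). Both were below control in every db/db library. Dnajc12, a partner of the aromatic amino acid hydroxylases, was the most abundant of these DnaJ members, with means of 216 ± 37.4, 156 ± 37 and 187 ± 19.9 FPKM in control, dbdb and dbR, and its difference between dbdb and control did not pass the test (-0.48, adjusted p = 0.0623).

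Dnajb3 was the member with the largest increase in dbdb, from 0.431, 0.851 and 0.625 FPKM in control to 3.75, 2.94 and 1.61 in dbdb, with 2.82, 3.19 and 2.4 in dbR (dbdb vs. control 1.93, SE 0.30, adjusted p = 0.00132). This gene without introns (chr1:88204732-88205782, minus strand, GRCm38) lies inside the span of the Ugt1a genes on the opposite strand, with which it shares no exonic base. Ugt1a2, a UDP-glucuronosyltransferase of that cluster, was at a mean of 4.01 FPKM in control, 178 in dbdb and 315 in dbR (dbdb vs. control 5.47, adjusted p = 1.36e-05). Ugt1a10 (1.38) and Ugt1a6a (0.56) were also called higher in dbdb. Ugt1a7c, with means of 275, 221 and 268 FPKM in control, dbdb and dbR, was at -0.32 and Ugt1a6b at -0.16, neither called. The part of reads from unspliced Ugt1a transcripts in the values of Dnajb3 was not tested. Dnajb5, an HSP70 cochaperone, rose by 0.47 (adjusted p = 0.013), with 1.67, 1.57 and 1.49 FPKM in control, 2.21, 2.01 and 2.47 in dbdb and 2.56, 2.47 and 2.26 in dbR. Dnajc27, a small GTPase with a J domain, and Dnajc9, a histone chaperone, were called at 0.47 (adjusted p = 0.0262) and 0.30 (adjusted p = 0.0408), and both calls were lost in most of the fits that left out 1 library, with adjusted p up to 0.0814 and 0.135. Among the 20 calls of dbdb vs. control, 16 held whichever of the 9 libraries was left out, the exceptions being Hspa4, Hspb8, Dnajc27 and Dnajc9. Of the HSP-named genes that are not chaperones of these families, Hspb11 (IFT25, a subunit of the transport particle of cilia) was lower, at 12.5, 12.6 and 12.7 FPKM in control against 9.12, 8.17 and 6.79 in dbdb (log2 fold change -0.66, adjusted p = 0.00158), a call lost when its most abundant transcript stood for the gene (adjusted p = 0.108), and the exchange factor Hspbp1 and Hspbap1 were not called (-0.09 and 0.07).

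The genes that work with these chaperones but have other names were read from 4 lists, of which 44 genes were tested. In dbdb vs. control 22 of 44 were called, 19 lower and 3 higher, against the 26.4% of all genes. Without control replicate 3 there were 16, 13 lower and 3 higher, when 19.0% of all genes were called. With mitochondrial genes left out of the scaling 9 were lower and 10 higher, when 30.7% of all genes were called and 78.3% of those calls were higher. The cytosolic chaperonin TRiC, which folds actin and tubulin, had 6 of 7 tested subunits lower, from -0.25 (Cct4) to -0.37 (Cct3), while Cct7 was at 0.01. Only Cct3 and Cct8 remained called without control replicate 3, without dbdb replicate 3 or with mitochondrial genes left out of the scaling. Of 9 heat shock factors and targets 4 were lower and 0 higher, namely Chordc1 (-0.71), the small HSP Cryab (-0.63), the collagen chaperone Serpinh1 (-0.56) and Cacybp (-0.45). The transcription factors of the response did not pass the test, with log2 fold changes of -0.06 for Hsf1, -0.20 for Hsf2 and 0.10 for Hsf4. Of 19 cochaperones of HSP90 and HSP70 7 were lower, among them the HSP90 activator Ahsa1 (-0.49), the immunophilin Fkbp4 (-0.45) and Stip1 (-0.27), which links HSP70 to HSP90. The 2 higher ones were Ppp5c (0.37) and Fkbp5, a glucocorticoid-induced immunophilin, which rose from a mean of 18.9 to 66.9 FPKM (1.85, adjusted p = 5.9e-05). Of 9 nucleotide exchange factors Sil1 (-0.43) and Grpel2 (-0.34) were lower and Bag4 (0.48) higher. Grpel2 and the cochaperone Tomm34 were not called without control replicate 3. Scaled without mitochondrial genes, the cochaperones were 2 lower and 5 higher, with Ahsa2, Ppid, Stip1, Tomm34 and Trap1 lost, and the exchange factors 1 lower and 5 higher, with Grpel2 lost.

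**Figure D4:**
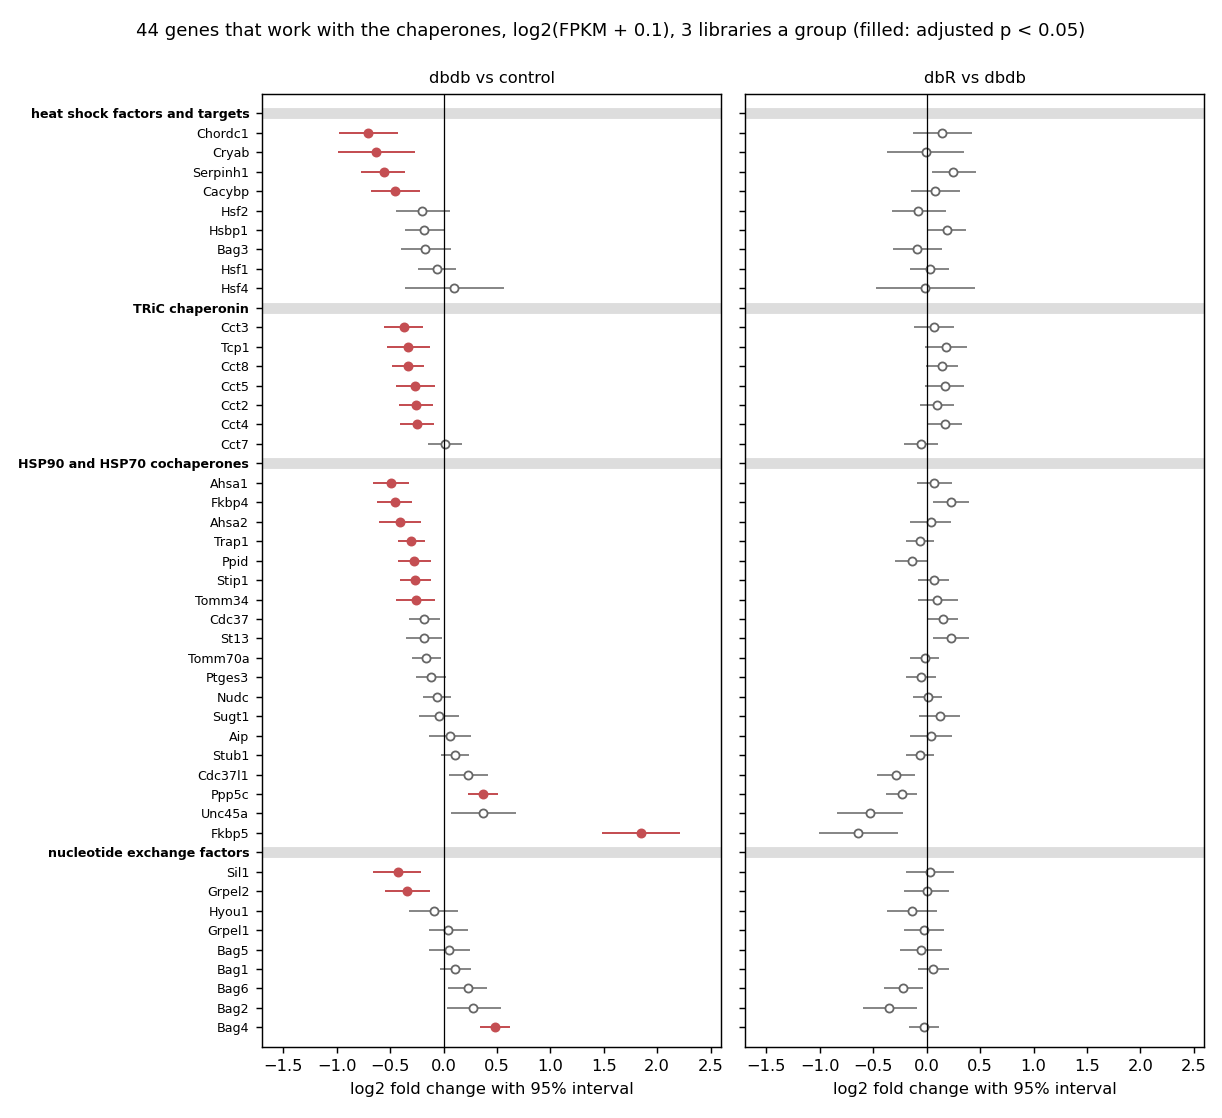
Log2 fold changes (log2(FPKM + 0.1) scale) of 44 genes that work with the chaperones, with 95% intervals, for dbdb vs control and dbR vs dbdb (3 libraries per group). Filled red points passed an adjusted p of 0.05, which were 19 lower and 3 higher genes in the first comparison and 0 in the second. With mitochondrial genes left out of the scaling 9 were lower and 10 higher in the first, when 78.3% of the calls over all genes were higher. Fkbp5 at 1.85 is the point farthest to the right.

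Other genes also differed in this comparison, in which 26.4% of all genes were called, 13.4% lower and 13.1% higher. Of the 4 markers of endothelium and the 5 of leukocytes, 4 and 4 were lower in dbdb, with summed levels of 90 to 98.7 FPKM in control against 63.3 to 69.1 in dbdb and of 7.13 to 9.54 against 2.94 to 3.85. Of the 4 markers of collecting duct 3 were higher (96.4 to 118 FPKM summed in control, 147 to 237 in dbdb), as were 2 of 4 of the thick ascending limb and distal tubule (469 to 577 and 665 to 956), 2 of 5 of podocytes (73.4 to 83.8 and 86 to 92.3) and 3 of 8 of the proximal tubule (4646 to 5420 and 4546 to 5546), the main cell type of this tissue. Of 5 muscle, 4 erythroid and 2 adipocyte markers tested 0 were called by limma, with both adipocyte markers, Adipoq and Cidec, at an unadjusted p under 0.05, and the skeletal muscle genes Acta1 and Ckm were below the minimum. The erythroid markers summed to 80.2 FPKM in control replicate 1 and to at most 18.7 in any other library. For the muscle markers these sums were 34.9 and at most 22.9. Of 14 clock genes 8 were called, with Per1 at 1.48, Per2 at 1.20, Cry1 at 2.24 and Nr1d1 at -1.25 on the log2 scale, and of 7 immediate-early genes tested Dusp1 (1.53) and Jun (0.91) were higher. Without control replicate 3 these counts of calls were the same except for 3 lower endothelial markers and for the proximal tubule, where 2 were higher and 1 lower. With mitochondrial genes left out of the scaling 2 endothelial markers were lower and 9 clock genes were called. In that fit 4 markers of podocytes, 4 of the proximal tubule and 4 of collecting duct were higher, as were 3489 of 14524 genes. The part of cell composition, time of day and handling in the chaperone values was not tested, and in whole cortex fewer cells of a type cannot be told apart from less RNA per cell.

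In dbR vs. dbdb 1 of 69 members was called (1.45%), compared with 0.743% of all genes, of which 0.179% were lower and 0.564% higher. At an unadjusted p under 0.05 there were 10 members, 5 in each direction, where 17.5% of all genes passed. The groups did not overlap for 6 members that were higher in dbR (8.70%, all genes 10.7%) and 10 that were lower (14.5%, all genes 11.9%). This comparison uses the same dbdb libraries as the one with control, so values of both are given side by side and no likeness between them is drawn. With mitochondrial genes left out of the scaling 1 member was again called, and 48.6% of the calls over all genes were higher compared with 75.9% on the deposited values.

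The called member was Dnajb9 (ERdj4), a DnaJ partner of Hspa5 and a target of the unfolded protein response. It was at 32, 30.6 and 31.5 FPKM in control, 30.5, 28.6 and 33.3 in dbdb and 22.8, 23.6 and 23.4 in dbR. Every dbR library lay below the other 6, and the log2 fold change was -0.40 in dbR vs. dbdb (SE 0.06, adjusted p = 0.0282), against -0.03 in dbdb vs. control. Its log2 fold change stayed between -0.46 and -0.34 in all 21 alternative fits, but the call was lost without dbdb replicate 1 or any 1 dbR library (adjusted p up to 0.12). It was also lost with the 6 libraries of the comparison alone, without the variance trend and with a replicate block. Dnajb11, its neighbour in function at Hspa5, had means of 43.3, 38.7 and 32.7 FPKM in control, dbdb and dbR and was not called (-0.24, adjusted p = 0.159), and Hspa5 itself was at -0.08 with a 95% interval of -0.29 to 0.13.

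The members that were lower in dbdb did not pass the test for a difference after rosiglitazone. The log2 fold changes of dbR vs. dbdb were 0.18 for Hspa8 (95% interval -0.03 to 0.38), 0.17 for Hsp90ab1 (-0.03 to 0.38), 0.06 for Dnaja1 (-0.13 to 0.24), -0.16 for Hsph1 (-0.40 to 0.08), -0.04 for Dnajb1 (-0.30 to 0.22), 0.05 for Hspd1 (-0.13 to 0.23) and 0.02 for Dnajc22 (-0.14 to 0.17). Hspe1 was higher in every dbR library than in any dbdb library, at 0.32 (interval 0.13 to 0.52), and did not pass the adjustment (adjusted p = 0.106). The same held for Hsp90ab1, Hsp90aa1, Dnajc1 (0.18, adjusted p = 0.228) and Dnajc8 (0.31, adjusted p = 0.0972), while 10 members were lower without overlap. Hspb11 was at 10.6, 12.4 and 11.2 FPKM in dbR, above all dbdb libraries, with a log2 fold change of 0.51 (SE 0.10, adjusted p = 0.0562). It was called in 3 of 21 alternative fits, those with quantile normalization, with scaling to the 75th percentile and with a minimum mean of 1 FPKM. Over the 21 fits its log2 fold change was 0.27 to 0.60, with adjusted p up to 0.617. The most abundant transcript of Hspb11 alone overlapped between dbdb and dbR. Hspb1 was lower in every dbR than in any dbdb library (-0.45, adjusted p = 0.0903) and did not pass the adjustment. Hspa1b was also lower in every dbR library, at -0.35, with an unadjusted p of 0.254 in limma. Of the 44 pathway genes 0 were called by limma in dbR vs. dbdb, with Unc45a (-0.53, adjusted p = 0.088) and Fkbp5 (-0.64, adjusted p = 0.0873) closest to the threshold, and Fkbp5 was called without control replicate 1. At an unadjusted p under 0.05 there were 12 of 44, 6 in each direction, where 17.5% of all genes passed. Beside these values, 2 of the 4 endothelial markers, Emcn and Kdr, were higher in dbR than in dbdb (Emcn alone with mitochondrial genes left out of the scaling), and the list summed to 90.3 to 108 FPKM in dbR. The 5 leukocyte markers summed to 4.74 to 5.32 FPKM in dbR, above all dbdb libraries, with 0 called by limma and 3 at an unadjusted p under 0.05, all higher in dbR. Of the 14 clock genes Per2 was called (-0.49, adjusted p = 0.0282). The part of these in the chaperone values was not tested.

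Compared to the control group, 26 of 69 members were called in dbR (37.7%, all genes 24.1%), 20 of them lower (all genes 11.8%) and 6 higher (all genes 12.3%). With mitochondrial genes left out of the scaling 18 members were called, 12 lower and 6 higher, while 70.5% of the calls over all genes were higher compared with 51.1% on the deposited values. Without control replicate 3 there were 16 (all genes 17.1%), 14 lower and 2 higher, and Hsp90aa1 was then called (-0.60, adjusted p = 0.0116). Of the 26 calls on all libraries, 14 held whichever library was left out. These 14 were Hsph1 (-1.01), Dnajc22 (-0.71), Dnaja1 (-0.69), Dnajb1 (-0.62), Hspa5 (-0.49), Hspd1 (-0.48), Dnajc2 (-0.48), Hsp90ab1 (-0.47), Dnajc6 (-0.46), Dnajb9 (-0.43), Hspa8 (-0.42) and Dnajb11 (-0.41), which were lower, and Dnajb3 (2.01) and Dnajb5 (0.59), which were higher. Hspe1, called in dbdb vs. control, was at -0.19 in dbR vs. control (adjusted p = 0.148), and Hspb11 at -0.15 (adjusted p = 0.331). Dnaja4, a cytosolic DnaJ protein that shares 44.1% of its exonic bases with Wdr61 on the opposite strand, was called at -0.60 (adjusted p = 0.0386), with 8.24, 9.28 and 9.34 FPKM in control and 6.41, 5.33 and 5.95 in dbR, and this call was lost without any 1 of 7 libraries (adjusted p up to 0.118). Of the 44 pathway genes 16 were called in dbR vs. control, 14 lower and 2 higher, but 9 without control replicate 3 and 10 without dbR replicate 1. Cct3, Cct8, Cacybp, Fkbp4, Stip1 and Grpel2 were lost in both of these fits. There were 7 lower and 4 higher with mitochondrial genes left out of the scaling. In the same comparison 3 of 4 markers of collecting duct, 3 of 4 of the thick ascending limb and distal tubule (2 without control replicate 3), 2 of 5 of podocytes and 1 of 8 of the proximal tubule were higher (all genes 12.3%). Of 5 leukocyte markers 1 was lower (all genes 11.8%), or 2 without control replicate 3, and 8 of 14 clock genes were called (all genes 24.1%). Their part in the chaperone values was not tested.

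Outside the 69 members, the genes whose pattern over the 9 libraries was most like the mean standardized level of Hspa8, Hsph1, Hspa1b, Dnajb1 and Hsp90aa1 were Etfdh (r = 0.986), Nufip2 (0.975), Zfp322a (0.974), Pdgfb (0.972) and Kansl1l (0.969). Without Hsp90aa1, whose level in control replicate 3 weighs on that mean, they were Ccdc117 (0.977), Nufip2 (0.975), Usp37 (0.967), Samd8 (0.963) and Tnfrsf11b (0.963). These are correlations over libraries of 3 groups that differ in level, given as a description.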

How the data were processed

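RNA-seq of ribosome-depleted, strand-specific libraries was analysed for 9 mice, 3 per group, with groups taken from the sample labels. The authors aligned reads to GRCm38.p2 with TopHat2 2.0.9 and deposited FPKM per transcript from Cufflinks 2.1.1. The strand setting of that counting is not given in the sources used here. FPKM keeps no read counts, so no count test was used and depth limits the low members most.

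FPKM was summed per gene, and log2(FPKM + 0.1) of the 14537 mRNA genes with a mean of at least 0.1 was fitted with limma 3.58.1 (R 4.3.3, variance trend) in 1 model of 3 groups. Tests were two-sided with Benjamini-Hochberg adjustment over all genes, and an adjusted p under 0.05 was called. Fold changes on this scale understate those of low genes. The 3 comparisons share libraries. Files of assembled lncRNAs were not used.

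The members and lists were chosen with earlier results of these data known. Named were the 15 core chaperones, all members called in dbR vs. dbdb, and in the other comparisons the 12 called members with the largest absolute change. Members chosen after their values were seen were named where a count needed it. Gene positions come from GENCODE (GRCm38). Alternatives were other pseudocounts, minima, scalings, models, a replicate block, the main transcript alone and leaving out each library.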

Additional observations from a re-analysis of the deposited data

How the results depend on the processing

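Read depth and 3 libraries per group limit small differences and low members, and control replicate 3 decides Hsp90aa1, which in dbdb vs. control had a log2 fold change of 1.32, -0.75 without it and up to 2.48 without another library, and in dbR vs. control 1.48, -0.60 and up to 2.64. Over 21 alternatives the called members in dbdb vs. control numbered 16 to 22 (20 as reported), and 11 of the 15 named calls held in all of them.

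In dbR vs. dbdb 1 member was called as reported, 2 with a minimum mean of 1 FPKM, quantile normalization or 75th percentile scaling, 0 without the variance trend, with the 6 libraries alone or with the replicate block, and 0 to 1 when 1 library was left out. In dbR vs. control the 26 calls became 16 to 25 when 1 library was left out, 16 without control replicate 3 or dbR replicate 1.

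The median log2 fold change of the members was -0.043, -0.014 and -0.149 in dbdb vs. control, dbR vs. dbdb and dbR vs. control. With mitochondrial genes left out of the scaling it was 0.116, -0.078 and -0.055, when the median of all genes was 0.149, -0.063 and 0.089. With 75th percentile scaling it was -0.017, 0.009 and -0.100, and with quantile normalization -0.007 and -0.117 in the first and last of these. Leaving out 1 library gave -0.064 to -0.026, -0.028 to 0.007 and -0.150 to -0.101. The calls over all genes were higher in 78.3% of cases with mitochondrial genes left out (49.5% as reported) in dbdb vs. control, 48.6% (75.9%) in dbR vs. dbdb and 70.5% (51.1%) in dbR vs. control, and in 62.3% in dbR vs. control with 75th percentile scaling.

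Libraries with the same number did not deviate together (correlations of -0.175 to 0.0615, against -0.108 to 0.168 for those with different numbers). These correlations show no pairing of the mice by number but cannot exclude one. The replicate block gave 18, 0 and 20 called members, so that Dnajb9 was not called in dbR vs. dbdb, and 23 rather than 108 calls over all genes in dbR vs. dbdb, where the other alternatives gave 2 (without dbR replicate 2) to 234 (quantile normalization). Other causes of these moves were not tested.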
